A study of Mus musculus with 8 samples.

Results

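The 37 genes described here are beta-defensins of the mouse, chosen by symbol (Defb followed by a number) from the 19348 genes of the deposited count table. They are not the whole family, since Defb8, for example, is not among them. Beta-defensins are small secreted peptides with a positive charge whose paired cysteines form disulfide bonds. Some are made constantly by epithelia and others are switched on by infection, and they damage microbial membranes and attract immune cells through receptors such as Ccr6. Their genes lie in tandem groups, and in rodents a large branch of the family is expressed along the epididymis, the duct where sperm mature, where several of the peptides coat the sperm surface.

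RNA-seq had been carried out on liver and epididymal white adipose tissue (eWAT), the fat pad attached to the epididymis, of male C57BL/6 mice aged 12 weeks and fasted for 16 h. Mice labelled Crtc1-/- carried a whole-body CRISPR/Cas9 knockout of Crtc1, a coactivator of the transcription factor CREB, and were compared with littermates labelled Crtc1+/+. Each tissue had 2 mice of each genotype, giving 8 libraries, and the question set by the design was which genes differed with the genotype in each tissue. No beta-defensin was the target of the knockout.

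The libraries held 16560085 to 19721481 counts. A level of 3 counts, the limit that a count of 0 allows, was taken as the floor of a library and stood at 0.152 to 0.181 CPM (counts scaled to the library total). Counts of Crtc1 were not consistently lower in the mice labelled Crtc1-/-. In eWAT replicate 1 was above and replicate 2 below both Crtc1+/+ libraries (57.6 and 27.5 CPM against 36.9 and 36.9 CPM). In liver both were higher, 22.1 and 18.6 CPM against 11.6 and 9.61 CPM. These counts sum the whole gene and do not show whether the targeted exons were transcribed, so the groups are named below by their labels.

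The 37 genes formed 5 groups on the mouse genome GRCm38.p6. Defb18 and Defb41 lie on chromosome 1 from 18236402 to 18265138. The chromosome 2 group has 11 members within 164.0 kb, from Defb23 at 152459055 to Defb25, which ends at 152623053. Chromosome 8 has a first group of 9 members from 18974914 to 19295339 (320.4 kb), from Defb40 to Defb3, and a second group of 10 members from 20892667 to 21948622 (1056.0 kb), from Defb33 to Defb13. The chromosome 14 group has 5 members within 71.1 kb, from Defb48 at 62977524 to Defb42, which ends at 63048606.

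Reads can be shared between members only where their transcripts are alike. In the GENCODE transcripts of the same build, 28 of the 37 members had no stretch of 50 nt in common with another gene, and 9 had at least 1. The closest relatives were 4 neighbours of the second chromosome 8 group, Defb11, Defb2, Defb10 and Defb9, in which 19.8%, 20.7%, 16.9% and 9.96% of all stretches of 50 nt occurred in another gene. Defb11 and Defb2, a defensin known from the airway, shared 102 nt from their first base on, across exons 1 and 2. The first 90 coding bases of the 4 transcripts are shown because they carry the coding part of this shared stretch, 69 nt. Capitals mark bases that differ from Defb11, and these numbered 10 in Defb2, 1 in Defb10 and 20 in Defb9.
Defb11: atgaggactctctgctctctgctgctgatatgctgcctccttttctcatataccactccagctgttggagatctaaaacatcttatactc
Defb2: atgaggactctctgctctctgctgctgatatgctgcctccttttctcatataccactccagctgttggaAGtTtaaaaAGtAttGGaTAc
Defb10: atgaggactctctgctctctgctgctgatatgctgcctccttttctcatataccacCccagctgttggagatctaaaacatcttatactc
Defb9: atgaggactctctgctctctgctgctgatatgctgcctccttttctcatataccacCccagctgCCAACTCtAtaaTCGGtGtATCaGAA

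The start of the coding sequence, which encodes the signal peptide, was almost the same in all 4 genes, and the differences lay downstream of it. A further shared stretch joined Defb12 and Defb35, with 3.15% and 8.72% of their stretches of 50 nt, and Defb15 shared 37.2% with Gm36879, a gene annotated on the opposite strand of the same locus. Defb4 shared 5.68% with Defb8, and Defb42 shared 1.69% with many genes outside the family. All 296 values of the members were whole numbers, whereas 5.44% to 9.98% of all gene values per library were not. The values of Defb2, Defb4, Defb9, Defb10, Defb11, Defb12, Defb15, Defb35 and Defb42 are therefore less certain than the others, while the sum over all members does not depend on how reads were divided among members.

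Nearly all beta-defensin RNA of the series was in the eWAT of the mice labelled Crtc1+/+. The members held 291988 counts, or 1.59% of the library (Wilson 95% interval 1.59% to 1.60%), in replicate 1 and 265053 counts, 1.505% (1.499% to 1.51%), in replicate 2. In eWAT labelled Crtc1-/- they held 546 counts (0.00295%, 0.00271% to 0.00321%) and 122 counts (0.000692%, 0.000580% to 0.000826%). Per library this was 510 to 2304 times less. In liver the members held 390 and 192 counts in the libraries labelled Crtc1-/- and 71 and 56 counts in those labelled Crtc1+/+. Intervals and floors cover counting error only, and 2 libraries against 2 cannot give an exact permutation p under 0.3333. In bulk tissue, fewer cells of a type and less RNA per cell cannot be told apart.

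**Figure D1:**
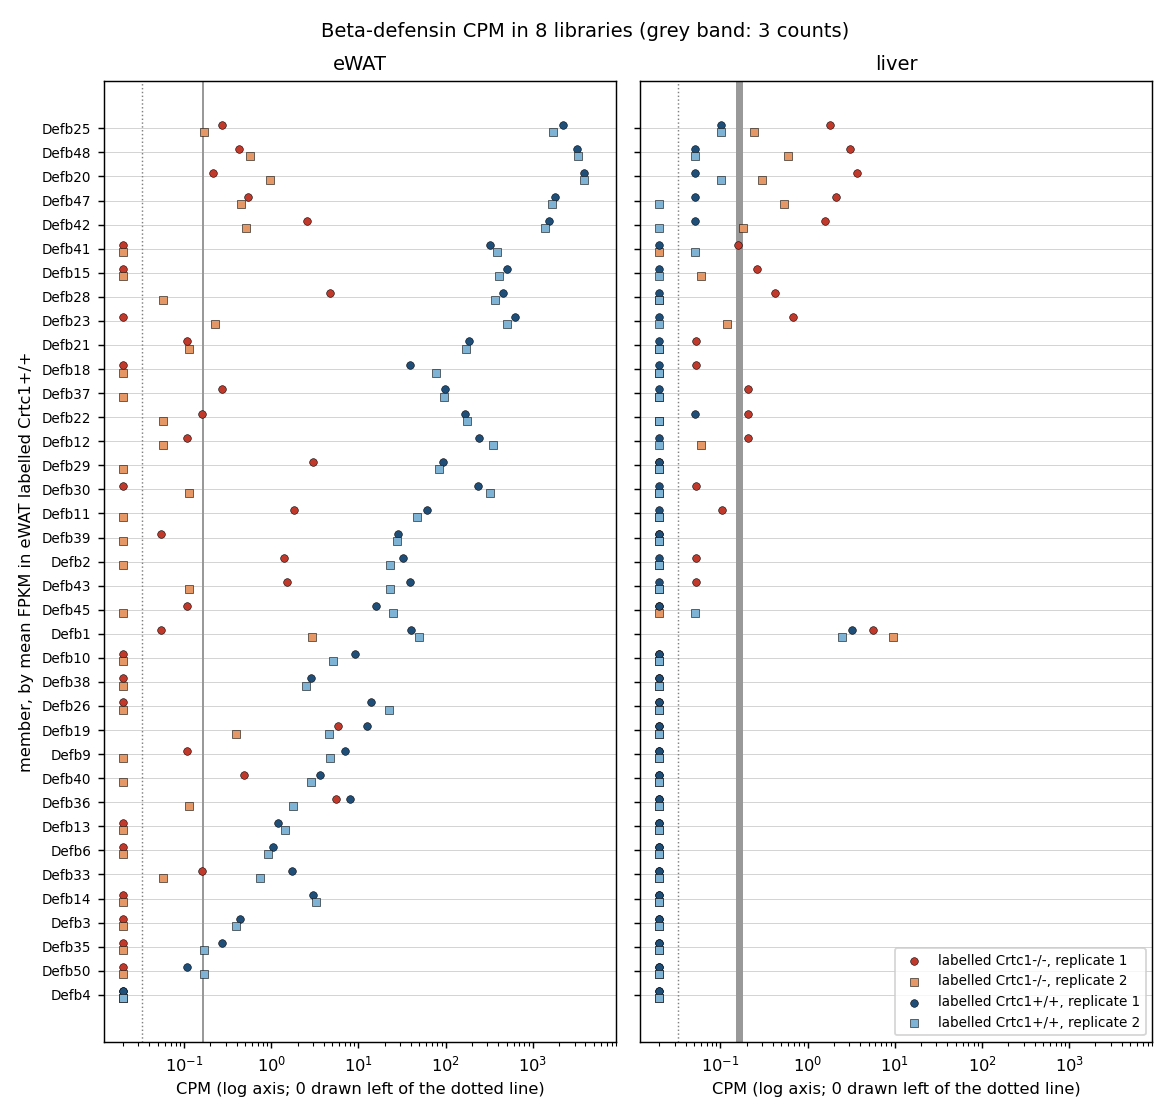
CPM (log axis) of each of the 37 members in the 4 eWAT libraries (left) and the 4 liver libraries (right), ordered by mean FPKM in eWAT labelled Crtc1+/+; points at 0 are drawn left of the dotted line and overlap, and the grey band is the floor of 3 counts. In eWAT, 35 and 34 members were above the floor in the Crtc1+/+ libraries against 14 and 7 in those labelled Crtc1-/-, and in liver only Defb1 was above it in all 4 libraries.

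Levels between genes were compared with the deposited FPKM values, which are scaled to transcript length. In eWAT labelled Crtc1+/+ Defb25 had the highest level, 13401 ± 2131 FPKM (SD, n = 2), followed by Defb48 with 11025 ± 231 FPKM. Defb20 followed with 7170.5 ± 19.997 FPKM and Defb47 with 6005 ± 114 FPKM. These 4 members belong to the chromosome 2 group (Defb25 and Defb20) and the chromosome 14 group (Defb48 and Defb47), and the lower FPKM value of each lay above the higher value of the next. Defb42, a defensin known from the epididymis, had 3147 ± 211 FPKM and Defb41, also known from there, 2722 ± 347 FPKM. Defb15, whose product is known to bind sperm, had 2486 ± 298 FPKM. The ranges of Defb41 and Defb15 overlapped, as those of no other neighbours among the 10 highest did, although Defb42 and Defb41 differed by less than the sum of their SDs. Defb28 (1649 ± 207 FPKM), Defb23 (1182 ± 156 FPKM) and Defb21 (624 ± 37.5 FPKM) completed the 10 highest, which held 92.8% and 91.0% of all member counts in the 2 libraries. Below them the order was looser, and 20 of all 36 neighbouring pairs overlapped.

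Defb14, Defb4 and Defb3 are known as defensins induced in skin and airway by infection, and Defb14 had 55 and 57 counts in the eWAT libraries labelled Crtc1+/+. Defb3 had 8 and 7 counts, Defb35 5 and 3 counts and Defb50 2 and 3 counts, all without a count in any other library. Defb4 was at 0 in all 8 libraries.

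In eWAT, 24 of the 37 members were lower in the mice labelled Crtc1-/- by edgeR's quasi-likelihood test at an adjusted p under 0.05 (Benjamini-Hochberg over 15391 genes), and 0 were higher, since all 33 fitted changes were below 0. Of all genes tested, 5.54% were called lower and 6.65% higher. A further 9 members were tested and not called (Defb28, Defb11, Defb2, Defb29, Defb33, Defb1, Defb40, Defb19 and Defb36), and 4 did not pass the filter on low counts (Defb3, Defb35, Defb50 and Defb4). Of those not called by edgeR, DESeq2 called Defb28, Defb2 and Defb1. A fit of all 8 libraries called these and also Defb11 and Defb29. At the looser threshold of the study (at least a doubling or halving, that is 1 on the log2 scale, and p under 0.01 before adjustment) 25 members were lower by edgeR, beside 7.54% of all genes. The study had applied this threshold to limma. None of the 37 members had 10 counts in both libraries labelled Crtc1-/-, while 33 had them in both labelled Crtc1+/+, so all tested members passed the filter through the Crtc1+/+ libraries and their number is a description. Their median log2 fold change was -9.13, that of all genes tested -0.05. With a term for the replicate number added (the replicate block), 0 members and 0 of all genes were called, and the member median was -9.33. Each call rested on both Crtc1+/+ libraries: without replicate 1 of that group, or without replicate 2, 0 members were called, and 0 of all genes, while 23 and 24 members had an unadjusted p under 0.05.

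Both libraries labelled Crtc1-/- lay below both labelled Crtc1+/+ in 34 of the 37 members (31 of the 33 tested), as they did in 44.0% of all genes tested. The exceptions were Defb19, Defb36 and Defb4.

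Defb20, the member with the most counts, had 71420 and 67650 counts (3900.3 and 3840.1 CPM) in eWAT labelled Crtc1+/+ against 4 and 17 counts (0.216 and 0.964 CPM) in eWAT labelled Crtc1-/-. The groups did not overlap, and the ratio of the pooled levels was 6660.3 (exact 95% interval 4357 to 10760). Its log2 fold change was -12.29 ± 1.21 (SE, edgeR adjusted p = 0.0169). Defb25 had 41009 and 30238 counts against 5 and 3 counts, a log2 fold change of -12.79 ± 0.64 (edgeR adjusted p = 0.0114). Defb48 had 59305 and 57531 counts against 8 and 10 counts, with a log2 fold change of -12.32 ± 0.70 (edgeR adjusted p = 0.0119). The counts of Defb25 were thus at or just over the floor of 3 counts in the libraries labelled Crtc1-/-, and those of Defb48 were above it. Defb47 had 32918 and 29068 counts against 10 and 8 counts. The log2 fold change of Defb47 was -11.43 ± 0.55 (edgeR adjusted p = 0.0114). Defb42 had 28184 and 24328 counts against 48 and 9 counts, and its log2 fold change was -9.63 ± 0.98 (edgeR adjusted p = 0.0170).

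Of the members, 13 had no count in either eWAT library labelled Crtc1-/-, and for these a fold is a lower bound against 3 counts per library. Defb15 had 9198 and 7222 counts in eWAT labelled Crtc1+/+ and was at least 2745-fold lower. Defb41, with 5913 and 6850 counts, was at least 2142-fold lower. Its neighbour on chromosome 1, Defb18, was at least 354-fold lower from 722 and 1379 counts, and the chromosome 1 group was the only one of the 5 with no count at all in eWAT labelled Crtc1-/-. The bound was at least 111-fold for Defb26 and at least 42.7-fold for Defb10, and it fell to 18.8-fold for Defb14, 16.1-fold for Defb38, 7.89-fold for Defb13 and 5.86-fold for Defb6. All 9 of these members were called lower, but Defb6 was not called by DESeq2, and neither Defb6 nor Defb13 was called without the filter. For Defb3 and Defb35, which were not tested, the bounds were 2.51-fold and 1.33-fold, and for Defb50 no bound could be given at this depth.

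Among the remaining members of high level, Defb23 had 11284 and 8890 counts against 0 and 4 counts and Defb21 had 3427 and 2991 counts against 2 and 2 counts, and both were called lower (edgeR adjusted p = 0.0170 and 0.0114). Defb22, the counterpart of a human defensin that coats sperm, had 3020 and 3078 counts against 3 and 1 counts and was lower, with a log2 fold change of -10.22 ± 0.50 (edgeR adjusted p = 0.0114). Defb12, with 4439 and 6148 counts against 2 and 1 counts, and Defb37, with 1777 and 1706 counts against 5 and 0 counts, were also called lower (edgeR adjusted p = 0.0114 and 0.0170). Defb43 had 723 and 405 counts against 28 and 2 counts and was the called member with the adjusted p nearest to 0.05 (log2 fold change -5.01 ± 1.08, edgeR adjusted p = 0.0484). The other called members not yet given (Defb30, Defb39, Defb45 and Defb9) had at most 2 counts in each library labelled Crtc1-/-.

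**Figure D2:**
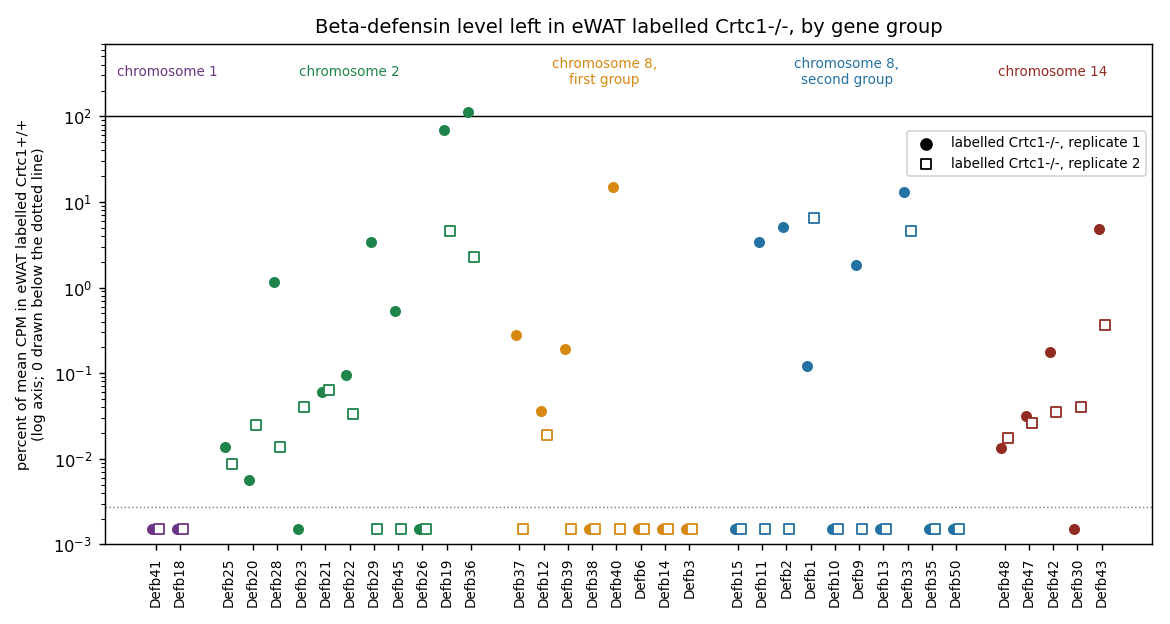
CPM of each member in the 2 eWAT libraries labelled Crtc1-/- as a percent of its mean CPM in eWAT labelled Crtc1+/+ (log axis; 0 drawn below the dotted line, black line at 100%), arranged by gene group; Defb4, at 0 throughout, is left out. Replicate 1 ranges from 0 to 111% (Defb36), with Defb19 at 68.7%, and in replicate 2 no member is above 6.54% (Defb1).

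What remained in eWAT labelled Crtc1-/- was uneven between members and between the 2 mice. In replicate 1 the leading member was Defb19, known from Sertoli cells of the testis, with 109 counts against 230 and 81 counts in the Crtc1+/+ libraries, and in replicate 2 it had 7 counts. Defb36, also of the chromosome 2 group, had 101 counts in replicate 1 and 2 counts in replicate 2, against 148 and 31 counts. For both genes replicate 1 lay between the Crtc1+/+ libraries. The log2 fold changes were -1.23 ± 1.20 for Defb19 (edgeR adjusted p = 0.497) and -0.61 ± 1.56 for Defb36 (edgeR adjusted p = 0.803), so neither differed beyond the spread between mice. The direction for Defb36 turned with the library: its log2 fold change was 0.35 without replicate 2 of the Crtc1-/- group and 0.74 without replicate 1 of the Crtc1+/+ group.

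Replicate 1 also kept more than 1% of the mean Crtc1+/+ level of several other members. Defb40 had 9 counts there (15.1%), Defb33 3 counts (13.05%, at the floor), Defb2 26 counts (5.06%) and Defb11 34 counts (3.41%). Defb28 had 88 counts (1.16%) and Defb29 55 counts (3.39%). In replicate 2 all of these except Defb33 and Defb28, with 1 count each, were at 0, and Defb29, Defb11, Defb2 and Defb40 were separated from the Crtc1+/+ libraries without being called (edgeR adjusted p = 0.0821, 0.0731, 0.0821 and 0.154). Defb28 stood just past the threshold, with a log2 fold change of -7.20 ± 1.70 (edgeR adjusted p = 0.0581). Defb1, the constitutive defensin of kidney and other epithelia, showed the opposite order of the mice, with 1 count in replicate 1 and 52 counts in replicate 2 against 735 and 881 counts in eWAT labelled Crtc1+/+. Its log2 fold change was -4.48 ± 1.51 (edgeR adjusted p = 0.116). Leaving out a replicate of the Crtc1-/- group leaves 1 library there, so the spread then comes from the Crtc1+/+ libraries alone, and only sizes are given here. The log2 fold change of Defb1 was -3.48 without replicate 1 and -9.40 without replicate 2, and that of Defb28 -12.22 and -6.27. Without replicate 1 the log2 fold changes of Defb29, Defb11, Defb2, Defb40 and Defb19 were -13.48, -12.77, -11.81, -8.71 and -3.94, and the first 4 of these rest on 0 counts in replicate 2.

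By gene group, the summed counts in replicate 1 labelled Crtc1-/- were 0% of the mean Crtc1+/+ level on chromosome 1, 0.273% on chromosome 2, 0.213% and 0.596% in the first and second groups of chromosome 8 and 0.0753% on chromosome 14. In replicate 2 they were 0%, 0.0287%, 0.0132%, 0.502% and 0.0261%. The second chromosome 8 group was the highest in both mice, through Defb11 and Defb2 in replicate 1 and Defb1 in replicate 2. All 5 members on chromosome 14 and both on chromosome 1 were called lower, against 7 of 11 on chromosome 2. On chromosome 8 it was 6 of 9 in the first group (7 tested) and 4 of 10 in the second (8 tested). The gene groups were not compared by a test.

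The Crtc1+/+ libraries also differed from each other. Of the 33 members with over 10 counts in both, the CPM of replicate 1 over that of replicate 2 had a median of 1.11, and 24 were within 1.5-fold. The ratio was highest for Defb36 (4.59), Defb19 (2.73) and Defb33 (2.37) and lowest for Defb18 (0.504). Defb10 (1.77), Defb45 (0.628) and Defb26 (0.622), which kept little or nothing in eWAT labelled Crtc1-/-, also lay outside 1.5-fold. In the 10 members that kept over 1% in replicate 1 labelled Crtc1-/-, a limit chosen after the values were seen, the ratio was 1.11 to 4.59 with a median of 1.46, and in the other 23 it was 0.504 to 1.77 with a median of 1.002. Among the 10, Defb33 and Defb9 had 3 and 2 counts there, at or under the floor. Among the others, Defb10, Defb14, Defb38, Defb13 and Defb6 had 0 counts, but their level was too low for 1% of it to be seen. Across the 33 members Spearman's rho between the ratio and the percent kept was 0.54, a description over genes that share libraries and depth. The 10 genes of a testis and sperm list behaved likewise: their ratios were 1.17 (Smcp) to 12.8 (Ldhc), and they kept 4.03% (Spata18) to 22.3% (Tnp2) in replicate 1 labelled Crtc1-/-. Whether testis RNA had a part in the values of Defb19, Defb36 or the other 8 was not tested.

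**Figure D3:**
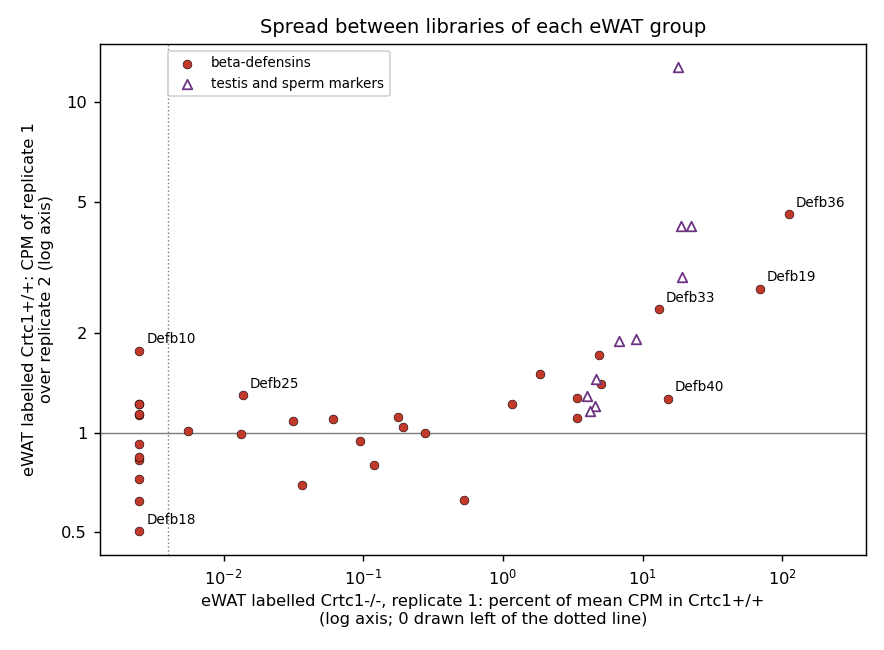
Each point is a gene: the CPM of replicate 1 over replicate 2 in eWAT labelled Crtc1+/+ (log axis) against the percent of its mean Crtc1+/+ level found in replicate 1 labelled Crtc1-/- (log axis; 0 drawn left of the dotted line), for 33 members and the 10 testis and sperm markers. Defb36, Defb19 and Defb33 (3 counts, at the floor) lie at the upper right, in the range of the testis and sperm markers or beyond it, and the members at 0 spread from 0.504 to 1.77.

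Markers of other tissues moved with the members. The 19 epididymis markers in the table (lipocalins, cystatins and others) held 8.03% and 9.41% of counts in the eWAT libraries labelled Crtc1+/+ but 0.00492% and 0.00142% in those labelled Crtc1-/-, where 5 and 3 of them were at 0. Of the 19, 16 were called lower and 0 higher, with a median log2 fold change of -12.16. Gpx5, the secreted glutathione peroxidase of the epididymis and the most abundant of them, had 33 and 101 counts in eWAT labelled Crtc1-/- against 847069 and 976458 counts in eWAT labelled Crtc1+/+. The 10 testis and sperm markers held 0.149% and 0.0693% against 0.0124% and 0.00145%, none was at 0 in any eWAT library, and 3 were called lower with a median log2 fold change of -4.38. The 12 adipocyte markers went the other way, 4.53% and 2.09% in eWAT labelled Crtc1-/- against 0.260% and 0.389%. Of them 9 were called higher, and the median change on the log2 scale was 3.64. The 13 hepatocyte markers held 0.603%, 11.3%, 0.699% and 0.131% of the 4 eWAT libraries, and the highest of these, replicate 2 labelled Crtc1-/-, was also the library with 52 counts of Defb1. In replicate 1 labelled Crtc1-/- most of the share was Cyp2e1, with 90708 counts beside 9491 of Alb. As the amount of epididymis RNA differed with the genotype label in both mice of each group, it and an effect of the genotype on the members cannot be told apart in eWAT.

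**Figure D4:**
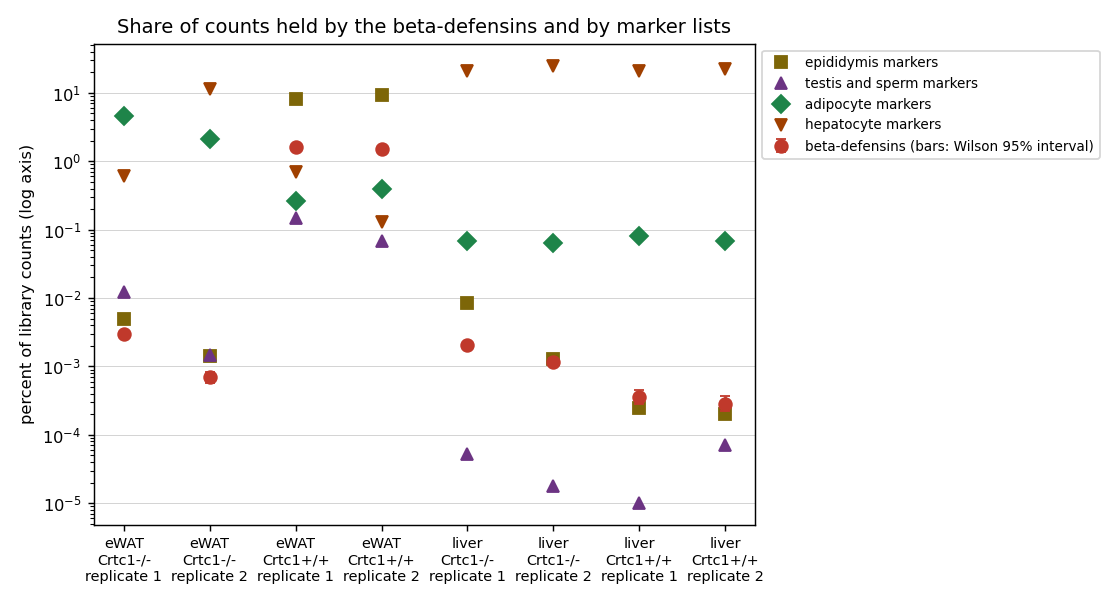
Percent of library counts (log axis) held by the 37 beta-defensins (bars: Wilson 95% interval, mostly within the symbol) and by 4 marker lists in each of the 8 libraries. Beta-defensins and epididymis markers are both highest in the 2 eWAT libraries labelled Crtc1+/+, at 1.505% to 1.59% and 8.03% to 9.41%, where the adipocyte markers are at 0.260% to 0.389%.

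The counts of members other than Defb1 were set beside those of the epididymis markers. For every 100 counts of the 19 markers there were 19.8 and 15.9 counts of these members in eWAT labelled Crtc1+/+. In liver there were 17.5, 16.7, 14.6 and 17.9, the first 2 labelled Crtc1-/-. The last 2 rest on 7 member counts each, beside 48 and 39 marker counts. The eWAT libraries labelled Crtc1-/- stood apart, with 59.8 and 28, and there the sums of the markers were 911 and 250 counts.

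In liver, Defb1 was the only member above the floor in all 4 libraries. It had 108 and 157 counts (5.68 and 9.48 CPM) in the mice labelled Crtc1-/- and 64 and 49 counts (3.25 and 2.50 CPM) in those labelled Crtc1+/+, and it made up 27.7%, 81.8%, 90.1% and 87.5% of the member counts. The groups did not overlap, as was the case in the same direction for 28.4% of all genes tested. The log2 fold change was 1.34 ± 0.37 and did not pass the adjustment (edgeR unadjusted p = 0.00513, adjusted p = 0.162). Over the alternatives the adjusted p of Defb1 ranged from 0.00182, without replicate 1 of the Crtc1-/- group, to 0.701. Of the 37 members 3 could be tested in liver (Defb1, Defb47 and Defb48), and 0 were called by edgeR and by limma, beside 0.0854% of all genes in either direction. DESeq2 gave an adjusted p for Defb1 alone (0.0696). By edgeR all 3 passed the threshold used by the study in the upward direction, as did 2.84% of all genes. All 3 had an unadjusted p under 0.05, as did 17.3% of all genes. Defb47 and Defb48 had at most 1 count in each Crtc1+/+ liver. They passed the filter only through the livers labelled Crtc1-/-, where they were high, so these numbers are a description. The liver count turned on the settings: without the filter 4 members were called higher (Defb20, Defb42, Defb47 and Defb48). Under the replicate block 2 were (Defb47 and Defb48). It also turned on single libraries, but leaving 1 out leaves 1 library in its group, with no spread of its own.

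The other liver counts were traces of the members most abundant in eWAT labelled Crtc1+/+. Defb48 had 59 and 10 counts in the livers labelled Crtc1-/- and 1 and 1 in the others, and Defb47 had 40 and 9 against 1 and 0. Their log2 fold changes were 4.99 ± 1.02 and 5.35 ± 1.10 (edgeR adjusted p = 0.119 and 0.120). Defb20 had 71 and 5 against 1 and 2 counts, Defb25 34 and 4 against 2 and 2, and Defb42 30 and 3 against 1 and 0. In replicate 1 labelled Crtc1-/-, 11 members besides Defb1 were above the floor, each at 0.0576% (Defb15) to 0.217% (Defb37) of its level in eWAT labelled Crtc1+/+, with a median of 0.103%. In replicate 2 the 4 members above the floor (Defb25, Defb48, Defb20 and Defb47) were at 0.00780% to 0.0315% of that level. The epididymis markers held 0.00847% of counts in replicate 1 labelled Crtc1-/-, 0.00127% in replicate 2 and 0.000243% and 0.000199% in the livers labelled Crtc1+/+, and Gpx5 had 976, 129, 25 and 20 counts. Both the members other than Defb1 and the markers were thus highest in replicate 1 labelled Crtc1-/- and next in replicate 2, and the part of epididymis RNA in the liver values was not tested. Defb1, at 12.6% and 21.03% of its eWAT Crtc1+/+ level in the livers labelled Crtc1-/-, was far outside the range of the other members. Of the 37 members 17 had no count in any liver library.

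**Figure D5:**
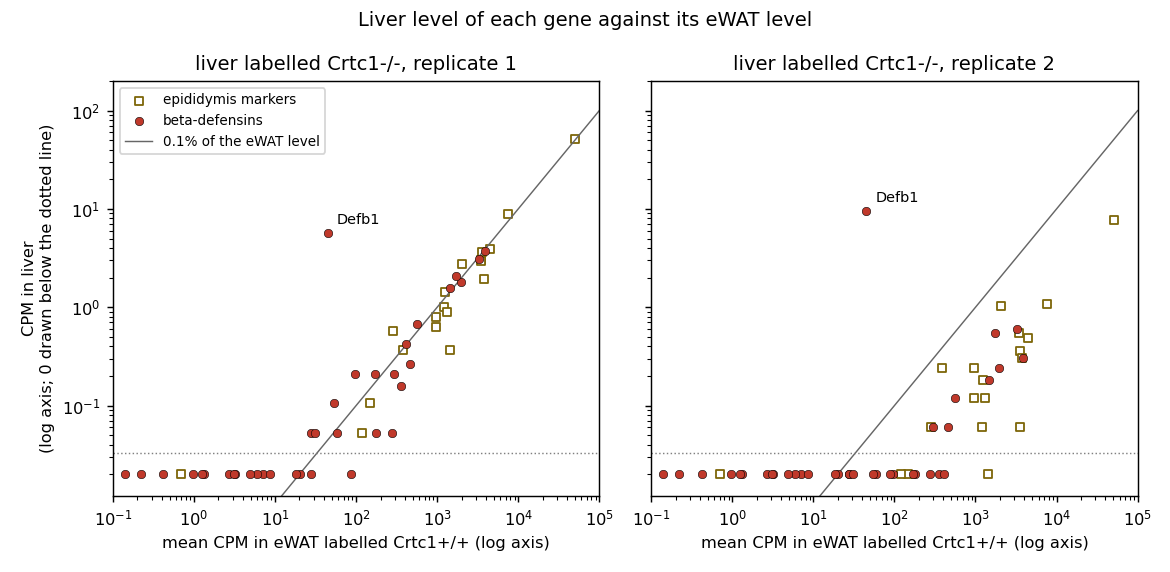
CPM of each member and of each epididymis marker in the 2 livers labelled Crtc1-/- against its mean CPM in eWAT labelled Crtc1+/+ (both log axes; 0 drawn below the dotted line; the line is 0.1% of the eWAT level). In replicate 1 the members other than Defb1 that are above the floor lie near the line, at 0.0576% to 0.217%, in replicate 2 they lie below it, and Defb1 lies far above it in both.

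The genotype difference itself was compared between the tissues in a fit of all 8 libraries. The study describes both tissues as taken from 2 mice per genotype, and this fit treated the libraries as independent. The labels do not say which libraries share a mouse. Of the 37 members 33 could be tested, and for 12 of them the eWAT difference was lower than the liver difference (edgeR adjusted p under 0.05), while 0 were higher. Among all genes 3.16% were lower and 3.78% higher by this test. The 12 were Defb12, Defb15, Defb20, Defb21, Defb22, Defb23, Defb25, Defb37, Defb41, Defb42, Defb47 and Defb48, and all had been called lower in eWAT. For Defb1 the difference on the log2 scale was -5.84 ± 1.58 (edgeR adjusted p = 0.0718). Under the replicate block 8 of the 12 members were called. The count fell to 0 without replicate 1 of the Crtc1+/+ livers, to 3 without their replicate 2 and to 4 without replicate 1 of the livers labelled Crtc1-/-. All members but Defb1, Defb47 and Defb48 had passed the filter of this fit only through the Crtc1+/+ libraries of eWAT. Defb47 and Defb48 were also high in the livers labelled Crtc1-/-, through which they had passed the filter of the liver fit. The number of members called is therefore a description. Members with no count in any liver library gave no information in this fit, so their absence from the 12 is not a result.

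Genes around the beta-defensins were described from lists. Among 8 other defensin and defensin-like genes (alpha-defensins, the cathelicidin Camp, Spag11a and Spag11b), 2 could be tested in eWAT and both were lower, with a median log2 fold change of -12.28. They were Spag11a and Spag11b, epididymis genes with a beta-defensin-like part. Spag11b had 219460 counts in replicate 1 labelled Crtc1+/+, 8 and 16 counts in eWAT labelled Crtc1-/- and 211 and 24 counts in the livers labelled Crtc1-/-. Camp, which is stored in neutrophils, had 12 and 3 counts in the eWAT of mice labelled Crtc1-/- and 3 and 0 in the others. Of 6 receptors known to bind beta-defensins 3 were tested in eWAT and 0 called (Ccr2, Tlr2 and Tlr4), with a median log2 fold change of 1.16, and Ccr6 had 1, 0, 8 and 0 counts in the 4 eWAT libraries.

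Cells that express beta-defensins outside the reproductive tract were checked in the same way. Of 5 tested keratinocyte markers 4 were lower in eWAT of the Crtc1-/- label (median -3.96 on the log2 scale), and the basal keratin gene Krt5, which epididymal basal cells also express, had 1 and 0 counts against 1766 and 1673 counts. Of 4 tested neutrophil markers 1 was higher (Elane) and 0 were lower, with a median log2 fold change of 2.82. The most abundant of them, the lactoferrin gene Ltf, which epithelia also express, had 149 and 6 counts against 3735 and 2182 counts and was not called (log2 fold change -5.08 ± 1.35, edgeR adjusted p = 0.0732). In liver no gene of any of these lists was called by edgeR at an adjusted p under 0.05.

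Promoters were examined because CREB, the partner of Crtc1, binds the cAMP response element, and because the members moved together in eWAT. RefSeq windows from 250 bases before to 50 after the start were at hand for 25 members (26 windows, since Defb21 has 2) of 32851 windows in all. The full element TGACGTCA was in 0 of the 26 windows, and in 1.79% of all windows. Its core TGACG, which the full element contains, was in 7 of 26 (26.9%), beside 20.8% of all, and TATAAA in 4 (15.4%), beside 13.6%. Both strands were searched. Neighbouring members have related sequences and are not independent, and a match is a description of letters, not a bound site.

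The 150 bases before the start are shown for the 5 members that hold these letters there, with matches in capitals and each sequence on the strand of its gene (GRCm38.p6, RefSeq). Defb48 (chr14:62984511-62984660, minus strand) and Defb15 (chr8:21932711-21932860, minus strand) were among the 10 highest members in eWAT labelled Crtc1+/+. Defb43 (chr14:63011621-63011770, plus strand) kept 4.84% of its level in replicate 1 labelled Crtc1-/-, and Defb3 (chr8:19293211-19293360, plus strand) and Defb13 (chr8:21946605-21946754, plus strand) were at the low end of the order.
Defb48: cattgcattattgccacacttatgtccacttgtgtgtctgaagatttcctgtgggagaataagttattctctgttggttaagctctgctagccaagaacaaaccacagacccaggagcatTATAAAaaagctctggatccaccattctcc
Defb15: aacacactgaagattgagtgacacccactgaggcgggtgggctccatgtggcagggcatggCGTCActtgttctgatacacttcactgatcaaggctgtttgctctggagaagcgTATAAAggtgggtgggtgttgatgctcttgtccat
Defb43: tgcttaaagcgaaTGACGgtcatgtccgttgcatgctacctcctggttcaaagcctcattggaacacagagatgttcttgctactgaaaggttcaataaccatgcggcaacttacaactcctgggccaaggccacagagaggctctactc
Defb3: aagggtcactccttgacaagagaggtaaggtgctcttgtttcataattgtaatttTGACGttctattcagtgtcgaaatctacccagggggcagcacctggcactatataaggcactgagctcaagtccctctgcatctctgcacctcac
Defb13: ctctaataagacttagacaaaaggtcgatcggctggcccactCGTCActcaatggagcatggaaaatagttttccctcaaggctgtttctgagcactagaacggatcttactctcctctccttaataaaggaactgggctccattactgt

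Defb48 and Defb15 have TATAAA close to the start, with its first base at -30 and -35 from it. Defb43 and Defb3 carry TGACG at -137 and -95, and Defb15 and Defb13 carry it on the opposite strand (CGTCA) at -89 and -108. The 5 differed in what was left in eWAT labelled Crtc1-/-, from 0 counts in both libraries for Defb15, Defb3 and Defb13 to 28 and 2 counts for Defb43.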

How the data were processed

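RNA-seq had been performed on liver and eWAT of 2 mice per genotype, and all 8 libraries were used. Deposited were estimated counts for each gene, which the authors had not normalized, and FPKM, which scale reads to transcript length and library total, for the same 19348 genes. The submitters' processing notes name HISAT, Bowtie2 and GRCm38.p6. The counting tool, the read length and the rule for reads that match several genes are not given in the sources used here.

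Members and lists were chosen with earlier results of these data known. Counts were rounded, filtered by filterByExpr, scaled by TMM and tested within each tissue with edgeR 4.0.16 in R 4.3.3 (glmQLFit, glmQLFTest, Benjamini-Hochberg over all genes tested), and a fit of all 8 libraries tested whether the genotype difference depended on the tissue. The fits were tested on simulated data. CPM were scaled to the library total, and intervals are Wilson (shares) or exact binomial (ratios of counts) at 95%. Named in full were the 10 members with the highest mean FPKM in eWAT labelled Crtc1+/+, those above 3 counts in any other library group, and up to 3 genes of each marker list. The alternatives were DESeq2 1.42.0, limma 3.58.1 on quantile-normalized log2(FPKM + 1) and log2(FPKM + 0.1), other scalings, no filter, unrounded counts, a replicate block, all 8 libraries in 1 fit, other floors and each library left out in turn. Transcripts came from GENCODE and promoter windows from RefSeq, both of GRCm38.p6, and all 37 members were matched to both sets of genes. A list of genes that induce beta-defensins is not reported here. The figures were drawn with matplotlib 3.10.9 in Python 3.11.15.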

Additional observations from a re-analysis of the deposited data

Results flagged for a closer look

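For 12 members the difference between mice labelled Crtc1-/- and Crtc1+/+ was not the same in eWAT and liver by the interaction test (edgeR, adjusted p under 0.05 over 15587 genes). The eWAT log2 fold change minus the liver log2 fold change was -16.11 for Defb25, -17.43 for Defb48, -16.94 for Defb20, -16.98 for Defb47, -14.65 for Defb42, -16.58 for Defb41 and -20.81 for Defb15. It was -18.58 for Defb23, -13.30 for Defb21, -14.02 for Defb37, -12.20 for Defb22 and -16.58 for Defb12. These members entered the fit through the Crtc1+/+ libraries of eWAT, where they were high, and Defb47 and Defb48 were also high in the livers labelled Crtc1-/-. Their number is therefore a description. The liver side of each difference rests on at most 2 counts in each Crtc1+/+ library, and the eWAT side of Defb15 and Defb41 on 0 counts in both libraries labelled Crtc1-/-, so the sizes depend on how the fit treats counts near 0 and are no bounds. The signs follow from eWAT counts of 1706 or more in each Crtc1+/+ library against 48 or fewer in each labelled Crtc1-/-. The epididymis markers held 8.03% and 9.41% of counts in eWAT labelled Crtc1+/+ but 0.00492% and 0.00142% in eWAT labelled Crtc1-/-, and 0.00847% and 0.00127% of the livers labelled Crtc1-/- but 0.000243% and 0.000199% of the others. Their part in the difference was not tested.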

How the results depend on the processing

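In eWAT the number of members called lower was 22 to 29 under every alternative other than the replicate block, which gave 0 (lowest edgeR adjusted p 0.0543, median log2 fold change -9.33), and the fits without 1 library, which gave 0 to 28 (0 without either library labelled Crtc1+/+). Under the block and without either of these libraries no gene of the table was called. In liver 0 members were called higher, but 4 without the filter, 2 under the replicate block and 0 to 5 with 1 library left out. In the interaction 12 were called lower, 31 and 26 by limma on log2(FPKM + 1) and log2(FPKM + 0.1), 18 by DESeq2, 8 under the block and 0 to 18 with 1 library left out. Replicate numbers were not taken as pairs within a tissue. There, deviations of Crtc1-/- and Crtc1+/+ libraries with the same number correlated at 0.014 in eWAT and 0.074 in liver, over 2 pairs each. This says nothing of liver and eWAT from 1 mouse. The study describes both tissues as taken from 2 mice per genotype, and the labels do not say which libraries share a mouse. The log2 fold change of Defb36 in eWAT, -0.61, ranged from -4.90 to 0.74 with 1 library left out, and was above 0 without replicate 2 labelled Crtc1-/- (0.35) and without replicate 1 labelled Crtc1+/+ (0.74). Library-size scaling moved the median of all eWAT genes from -0.05 to -0.35 and that of the tested members from -9.13 to -9.39. The cause of these moves was not tested.

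As a share of summed FPKM the members held 6.62% of the Crtc1+/+ and 0.00877% of the Crtc1-/- libraries of eWAT, and 0.00466% of the Crtc1-/- and 0.000723% of the Crtc1+/+ libraries of liver. Without epididymis markers in the total, the share of counts in eWAT labelled Crtc1+/+ rose from 1.55% to 1.70%. Above 10 counts, or above 0, there were 8 or 22 members in eWAT labelled Crtc1-/- replicate 1, 2 or 16 in replicate 2, 7 or 19 in liver labelled Crtc1-/- replicate 1 and 1 or 9 in replicate 2. Above 0 there were 7 and 6 in liver labelled Crtc1+/+. A level under 3 counts could not be told from 0 at this depth.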
